A study of Homo sapiens with 8 samples.

Results

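The transcripts of 43 genes that copy DNA or prepare the cell for S phase were followed through 8 libraries from a pair of established human lines, H1975 and HCC44, both derived from lung cancer and called wild type in the labels. The 43 are a list of gene symbols grouped by function, chosen with earlier results of these data known. Each matched 1 of the 61228 gene names in the count tables. All 43 passed the filter on low counts, which left 21307 genes for testing. Dishes of each line received ACBI1 or its solvent DMSO for 96 hours, which gave 4 groups of 2 libraries: H1975 with DMSO, H1975 with ACBI1, HCC44 with DMSO and HCC44 with ACBI1. ACBI1 is a degrader that directs the bromodomain proteins SMARCA2, SMARCA4 and PBRM1 of the SWI/SNF chromatin remodelling complexes to the VHL ubiquitin ligase. The labels give its concentration as 1 mM, a unit that is uncertain because degraders are used far below it. Nothing in the labels says whether replicates were separate cultures, so p-values measure the spread between these libraries, which may be technical.

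Before S phase, the origin recognition complex, CDC6 and CDT1 load the MCM2 to MCM7 ring onto DNA, and CDC45 and the GINS complex then turn that ring into the active helicase. Polymerases alpha, delta and epsilon copy the opened strands with the help of the clamp PCNA, while ribonucleotide reductase and thymidylate synthase supply the building blocks. Most of these genes are held down by RB proteins in resting cells and are switched on by E2F transcription factors when cells enter the cycle, which is why their transcripts are read as a sign of how many cells are cycling. In bulk RNA, more cells in S phase and more RNA per cell cannot be told apart.

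The promoters of these genes are shown first because many carry a word that E2F factors are known to bind. RefSeq windows on GRCh38.p14 from 250 bases before to 50 bases after the start site were found for 37 of the 43 members. E2F8, CCNE2, MCM4, MCM5, GINS4 and RPA2 had no window. Both strands were searched for 4 E2F-type words, TTTCCCGC, TTTCGCGC, TTTGCCGC and TTTGGCGC. A match was present in 19 of the 37 windows (51.4%), against 1164 of 35116 windows of all genes (3.31%) and 910 of 22199 windows of protein-coding genes (4.1%). TTTCCCGC and TTTGGCGC each occurred in 9 member windows, TTTCGCGC in 4 and TTTGCCGC in 1. In 16 of the 19, a word began between 60 bases before and 10 bases after the start site, a range chosen after the positions were seen. The windows were also rich in CG pairs, with a median of 30 against 14 in all windows and 21 in windows of protein-coding genes. The CCAAT word occurred in 21 of 37 member windows (56.8%, against 34.6% of all and 34.7% of protein-coding windows). The words TTTGAA or TTCGAA, known from genes of late cell cycle, occurred in 3 (8.11%, against 16.4% and 13.7%). A match describes letters and is not evidence of binding.

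The windows below belong to the members with the largest rise in HCC44 among those with an E2F-type word in the licensing, polymerase and nucleotide groups, namely CDT1, POLE2 and TYMS. E2F2, whose transcript rose most of all 43, and MCM6, whose transcript was not called in either line although its window holds the most matches, were added after their values were seen. Each is written 5′ to 3′ along the gene's strand, and capitals mark the E2F-type words on either strand. The 4 MCM6 matches lie as 2 overlapping pairs.
CDT1, chr16:88803539-88803838, plus strand: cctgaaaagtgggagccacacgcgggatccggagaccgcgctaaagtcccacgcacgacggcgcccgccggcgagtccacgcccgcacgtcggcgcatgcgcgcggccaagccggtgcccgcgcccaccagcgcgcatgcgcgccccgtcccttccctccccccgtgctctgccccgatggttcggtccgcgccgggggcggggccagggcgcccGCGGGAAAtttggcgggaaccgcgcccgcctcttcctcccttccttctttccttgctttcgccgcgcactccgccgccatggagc
POLE2, chr14:49688165-49688464, minus strand: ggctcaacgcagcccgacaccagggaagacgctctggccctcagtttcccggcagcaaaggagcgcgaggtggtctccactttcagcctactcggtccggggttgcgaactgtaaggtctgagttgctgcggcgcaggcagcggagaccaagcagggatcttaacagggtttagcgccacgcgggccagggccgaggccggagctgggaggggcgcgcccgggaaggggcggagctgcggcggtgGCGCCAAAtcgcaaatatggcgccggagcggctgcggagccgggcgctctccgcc
TYMS, chr18:657403-657702, plus strand: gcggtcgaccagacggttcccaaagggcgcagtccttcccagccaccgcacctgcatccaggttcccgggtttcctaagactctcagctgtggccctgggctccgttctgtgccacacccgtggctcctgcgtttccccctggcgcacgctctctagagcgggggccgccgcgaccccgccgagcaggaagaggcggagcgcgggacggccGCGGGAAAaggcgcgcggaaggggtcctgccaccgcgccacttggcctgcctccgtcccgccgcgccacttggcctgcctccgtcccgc
E2F2, chr1:23531184-23531483, minus strand: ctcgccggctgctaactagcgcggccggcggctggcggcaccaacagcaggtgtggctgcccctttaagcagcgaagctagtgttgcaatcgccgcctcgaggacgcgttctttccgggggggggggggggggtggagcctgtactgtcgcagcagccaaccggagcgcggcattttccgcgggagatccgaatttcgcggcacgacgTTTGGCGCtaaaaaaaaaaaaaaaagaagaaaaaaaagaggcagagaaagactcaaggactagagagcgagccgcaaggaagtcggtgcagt
MCM6, chr2:135876394-135876693, minus strand: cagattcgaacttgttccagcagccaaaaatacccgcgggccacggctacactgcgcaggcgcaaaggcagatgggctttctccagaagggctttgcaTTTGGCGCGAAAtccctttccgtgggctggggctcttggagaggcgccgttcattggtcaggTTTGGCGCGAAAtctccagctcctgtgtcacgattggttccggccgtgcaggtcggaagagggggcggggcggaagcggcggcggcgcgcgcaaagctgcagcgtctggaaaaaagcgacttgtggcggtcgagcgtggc

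Reads assigned to genes numbered 62467286 to 70455517 per library, and the 43 members held 0.178 to 0.376% of them. Levels are CPM, read counts scaled to library size with TMM factors, and a gene was called when edgeR's quasi-likelihood test gave a Benjamini-Hochberg adjusted p under 0.05 over all 21307 genes. The summed level of the members was 2766 and 2619 CPM with DMSO and 3214 and 2907 CPM with ACBI1 in H1975. In HCC44 it was 1934 and 2210 CPM with DMSO and 3623 and 3892 CPM with ACBI1. On this TMM scale the HCC44 DMSO libraries were thus the lowest of all 8 and the HCC44 ACBI1 libraries the highest. The top of that order depended on the scaling. As a share of assigned reads, H1975 ACBI1 replicate 1 (0.368%) lay above HCC44 ACBI1 replicate 1 (0.354%). Within HCC44 DMSO, replicate 2 was above replicate 1 for 40 of 43 members, with a median log2 difference of 0.23. In HCC44 ACBI1 this held for 25 members (median 0.05). In H1975 most members shifted the other way, with replicate 2 above for 8 with DMSO (median -0.11) and 4 with ACBI1 (median -0.15). Summed epithelial markers (6 genes, among them EPCAM, KRT7 and KRT8) lay at 5140 to 5390 CPM with DMSO and 2330 to 2810 CPM with ACBI1 in H1975, and at 940 to 980 and 1200 to 1660 CPM in HCC44. The 6 did not move alike. In HCC44 KRT7 went from 423 and 459 CPM with DMSO to 751 and 1122 CPM with ACBI1, while KRT8 went from 228 and 205 to 146 and 157 CPM. In H1975 KRT8 went from 814 and 826 to 394 and 384 CPM, while EPCAM overlapped between the groups (184 and 158 CPM, 171 and 137 CPM). The 4 fibroblast markers summed to 48.8 to 71.9 and 25.4 to 30.4 CPM in H1975 and to 73.4 to 91.9 and 203 to 406 CPM in HCC44. COL1A1 made up nearly all of that sum, and DCN had 0 counts in all 8 libraries. The 5 blood cell markers summed to at most 3.43 CPM, with CD3E at 0 in all libraries, and the 3 endothelial markers to at most 4.01 CPM. The part of these markers in the results was not tested.

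**Figure D1:**
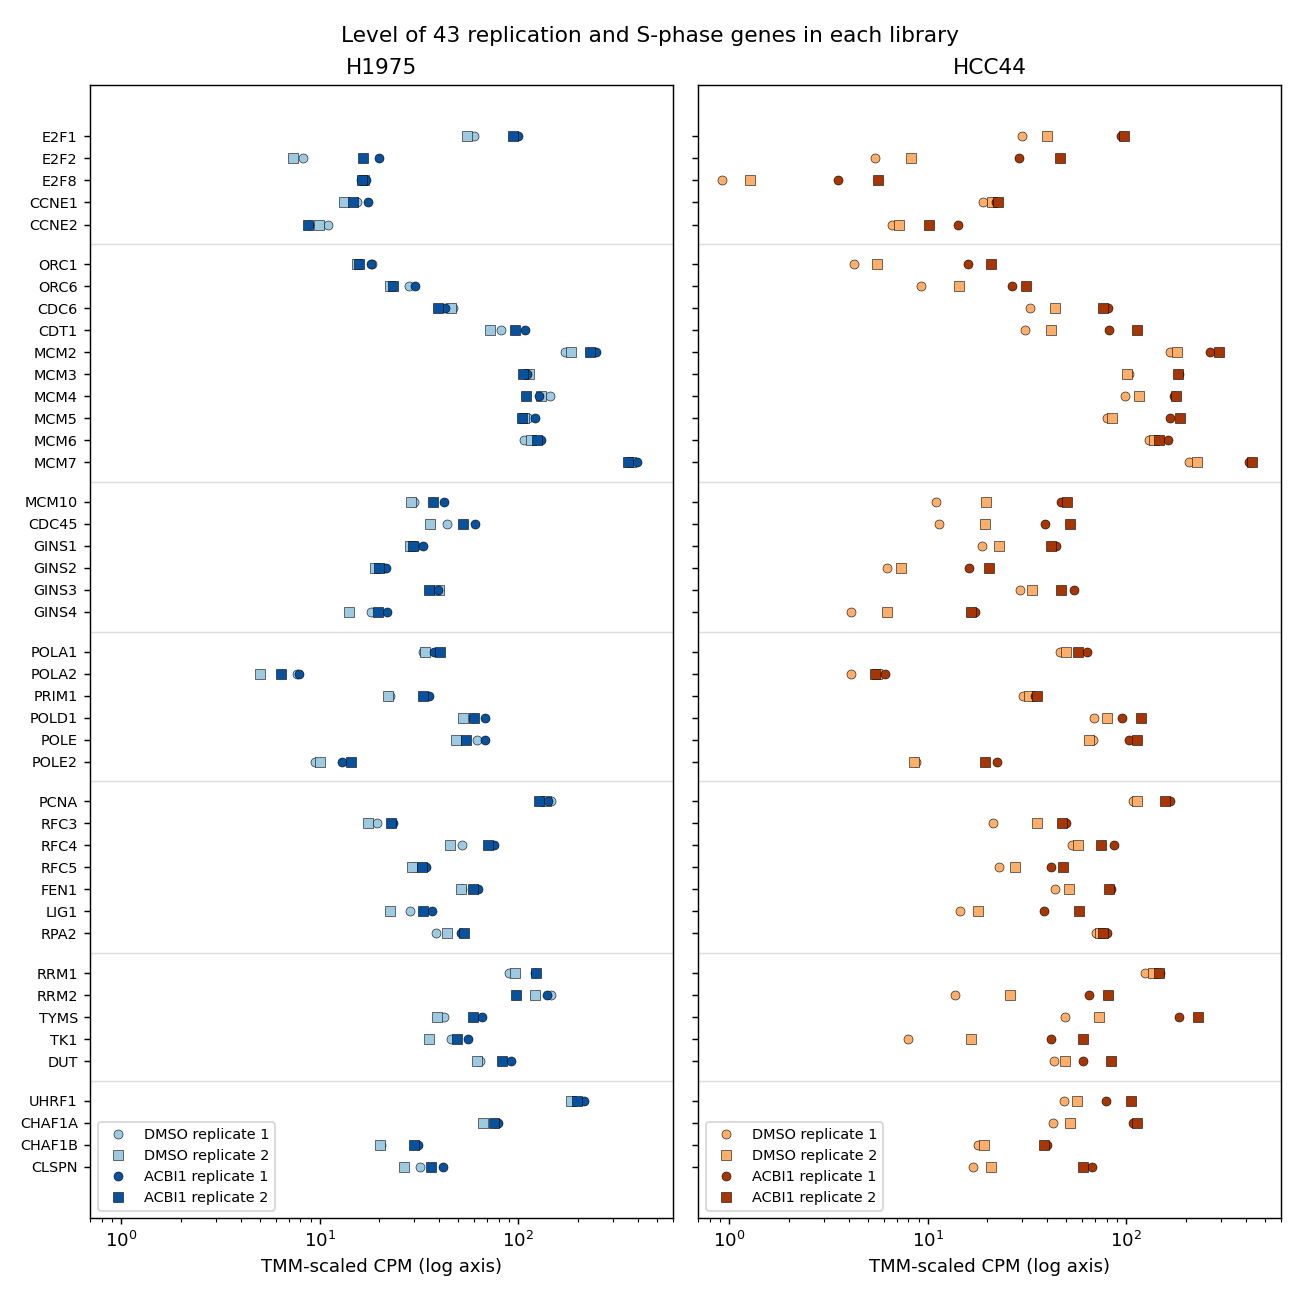
TMM-scaled CPM (log axis) of the 43 genes in each library, in role groups separated by grey lines, with H1975 on the left and HCC44 on the right. Circles are replicate 1 and squares replicate 2, pale symbols are DMSO and dark symbols ACBI1. In HCC44 both ACBI1 libraries lie above both DMSO libraries for 42 genes, and in H1975 for 25.

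In HCC44 the replication genes rose together after ACBI1. Of the 43 members 37 rose and none fell, while over all tested genes 17.5% were called higher and 17.4% lower. Because the members were chosen with earlier results of these data known, the contrast with all genes is a description only. The median log2 fold change of the members was 0.96, a 1.94-fold rise, beside 0.006 over all genes. By at least 1 on the log2 scale 21 members rose, beside 8.8% of all genes. All 43 fitted values were positive, and DESeq2 called none lower. Both ACBI1 libraries exceeded both DMSO libraries for 42 members, as for 34.1% of all genes, and POLA2 was the exception. The 6 members not called were CCNE1, MCM6, POLA2, PRIM1, RPA2 and RRM1, with POLA2 at 0.26 ± 0.24 (log2 fold change ± SE). The POLA2 value rested on single libraries, being 0.05 without HCC44 DMSO replicate 1 and 0.49 without HCC44 DMSO replicate 2. Leaving out HCC44 ACBI1 replicate 1 gave 0.17. Without HCC44 DMSO replicate 1 the members' median was 0.86 with 34 called higher, and without replicate 2 it was 1.13 with 36 called higher.

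In H1975 the response was smaller and covered fewer genes. There 12 members rose, beside 14.6% of all genes called higher, and none fell, beside 16.7% called lower. None fell by DESeq2 either, and none was lower at an unadjusted p under 0.05, while 15 were higher at that level. The median log2 fold change was 0.19, a 1.14-fold difference, beside -0.014 over all genes. Both ACBI1 libraries were above both DMSO libraries for 25 members (33.1% of all genes) and below them for 5 (34.2% of all genes), namely CCNE2, CDC6, MCM3, MCM4 and GINS3. The 12 that rose were E2F1, E2F2, MCM2, PRIM1, POLE2, RFC4, RPA2, RRM1, TYMS, DUT, CHAF1B and CLSPN. Of these E2F1, E2F2, PRIM1, RFC4 and CHAF1B were called under each of the 17 alternative settings, and without H1975 DMSO replicate 1 the count was 6. With library totals in place of TMM factors, which put the median of all genes at 0.18 in H1975 and 0.093 in HCC44, the members' median in H1975 was 0.40 and 23 were called higher. Under that scaling rises made up 72.3% of all H1975 calls, in place of 46.6%, and 60.5% of all HCC44 calls, in place of 50%.

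**Figure D2:**
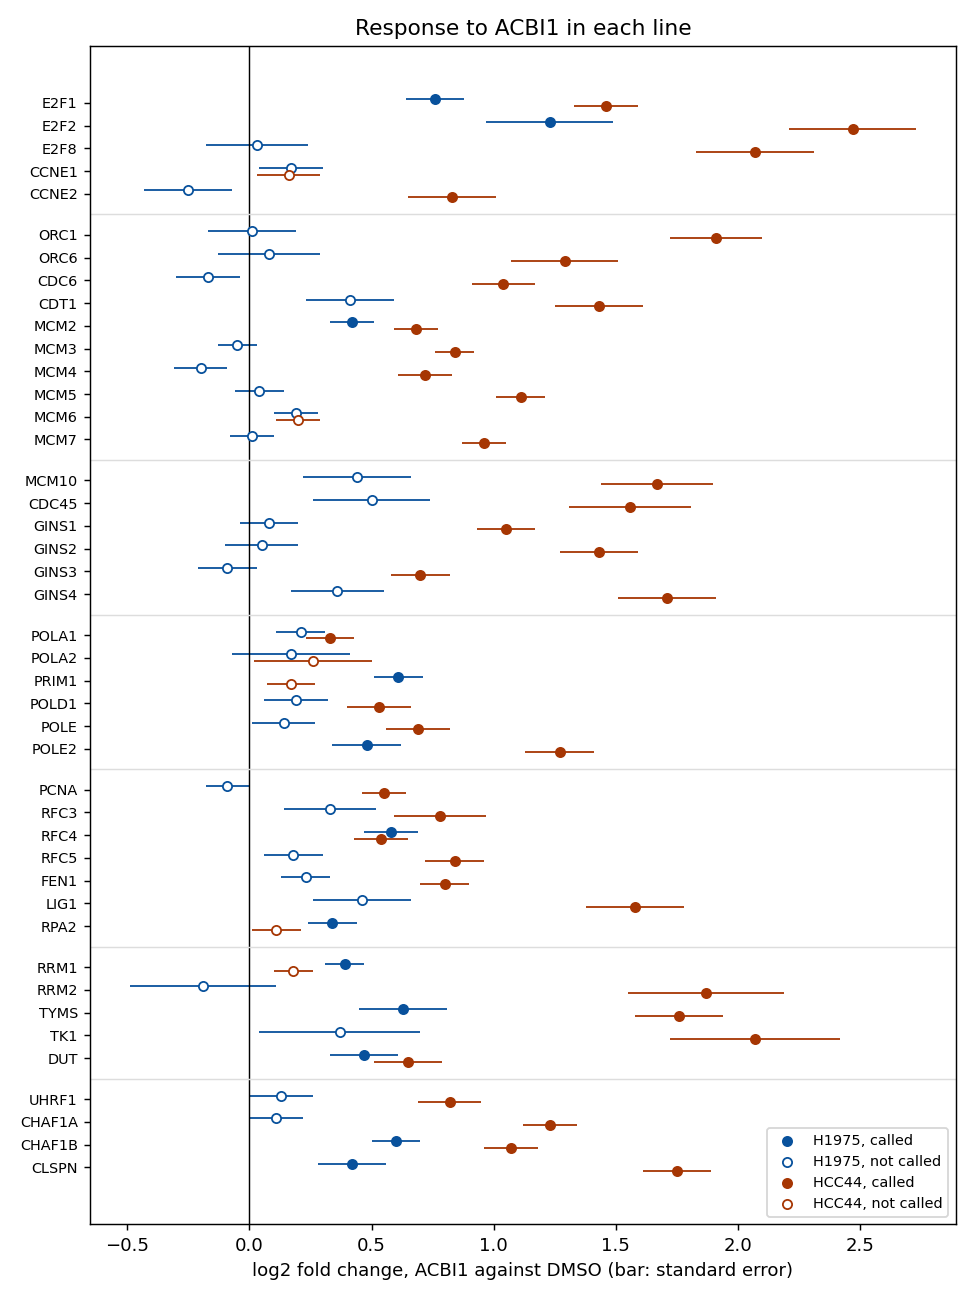
Log2 fold change of each gene, ACBI1 against DMSO, with its standard error, in H1975 (blue) and HCC44 (brown). Filled symbols were called at an adjusted p under 0.05 and open ones were not. Of 43 genes 37 are filled in HCC44 and 12 in H1975, all of them to the right of 0.

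Of the 5 E2F and cyclin E genes, 4 rose in HCC44 (17.5% of all genes) and 2 in H1975 (14.6% of all genes). E2F2, an activator of S-phase genes, was at 5.41 and 8.24 CPM in the HCC44 DMSO libraries and at 28.8 and 46.7 CPM with ACBI1. In H1975 it was at 8.28 and 7.35 CPM with DMSO and at 20 and 16.6 CPM with ACBI1. The groups did not overlap in either line, and E2F2 had the highest fold change of the 43 members in both. It rose 5.53-fold in HCC44 (log2 2.47 ± 0.26, adjusted p 0.000136 by edgeR) and 2.34-fold in H1975 (1.23 ± 0.26, adjusted p 0.00637). E2F1, the founding activator, rose from 34.8 ± 7.1 to 96.0 ± 2.0 CPM in HCC44 and from 57.6 ± 3.1 to 97.3 ± 4.0 CPM in H1975 (mean ± SD, n = 2), and with ACBI1 the level difference between the lines was not called (-0.02 ± 0.12). E2F8, an atypical E2F that represses, was at 0.922 and 1.27 CPM in HCC44 DMSO and at 3.54 and 5.65 CPM with ACBI1, a 4.18-fold rise. H1975 held it at 16.1 to 17.2 CPM in all 4 libraries, and it was not called.

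The cyclins E activate CDK2 at the entry to S phase, and of the pair only CCNE2 was called in HCC44. CCNE1 was at 19 and 21 CPM with DMSO and at 22 and 22.7 CPM with ACBI1 in HCC44, the smallest change of its group. Its H1975 levels were 15.4 and 13.3 CPM with DMSO and 17.5 and 14.8 CPM with ACBI1. It was called in neither HCC44 nor H1975 (adjusted p 0.398 and 0.386 by edgeR). CCNE2 rose in HCC44 from 6.90 ± 0.43 to 12.2 ± 2.9 CPM (n = 2) and was not called in H1975. The exons of CCNE2 overlap those of other genes over 37.1% of their length, so part of its counts is uncertain.

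Of the 10 licensing genes, 9 rose in HCC44 (17.5% of all genes) and 1 in H1975 (14.6% of all genes). The H1975 count is near that share, and nothing about the group is read from it. ORC1, the largest subunit of the origin recognition complex, was at 4.26 and 5.58 CPM in HCC44 DMSO and at 16.0 and 20.9 CPM in HCC44 ACBI1. That is a 3.75-fold rise (log2 1.91 ± 0.19, adjusted p 3.79e-05 by edgeR). In H1975 it was at 18.3 and 15.5 CPM with DMSO and 18.2 and 15.7 CPM with ACBI1. With ACBI1 the level difference between the lines was not called (0.12 ± 0.18). The loading factors CDC6 and CDT1 rose 2.05-fold and 2.69-fold in HCC44 and ORC6 rose 2.45-fold. None of these 3 was called in H1975.

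The MCM2 to MCM7 ring is built from 1 copy of each of 6 related subunits. In HCC44 5 of the 6 transcripts rose, beside 17.5% of all genes. MCM5 rose 2.15-fold, MCM7 1.94-fold, MCM3 1.79-fold, MCM4 1.64-fold and MCM2 1.61-fold. MCM6 was at 130 and 138 CPM with DMSO and at 162 and 147 CPM with ACBI1, a log2 fold change of 0.20 ± 0.09 that was not called (adjusted p 0.108 by edgeR). The exons of MCM2 overlap other genes over 23.6% of their length, which leaves part of its count uncertain. The MCM6 libraries did not overlap between the groups, but the gap was small beside those of the other subunits. In H1975 the 6 subunits spanned log2 fold changes of -0.20 to 0.42. MCM2 alone rose there, from 173 and 184 CPM with DMSO to 248 and 229 CPM with ACBI1 (0.42 ± 0.09, adjusted p 0.00602), and without H1975 DMSO replicate 1 its adjusted p was 0.0504. MCM6 in H1975 was at 107 and 116 CPM with DMSO and 130 and 125 CPM with ACBI1, and was not called.

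All 6 genes that activate the helicase rose in HCC44, beside 17.5% of all genes, with a median log2 fold change of 1.49. None was called in H1975, where 14.6% of all genes were called higher, and nothing about these 6 is read from that. GINS4, a subunit of the GINS complex, was at 4.13 and 6.25 CPM in HCC44 DMSO and at 17.3 and 16.6 CPM in HCC44 ACBI1. It rose 3.27-fold (log2 1.71 ± 0.20, adjusted p 0.000104 by edgeR), though 23.6% of GINS4 exon length overlaps other genes, so part of its count is uncertain. GINS3, the least changed of the group, was at 29.3 and 33.6 CPM and at 54.9 and 46.9 CPM in the same groups, a 1.62-fold rise. In H1975 GINS4 was at 18.2 and 14.1 CPM with DMSO and 21.8 and 19.7 CPM with ACBI1, and GINS3 at 40.1 and 40.0 and at 39.6 and 35.6 CPM. MCM10 and CDC45, which bind the ring and help to open it, rose 3.17-fold and 2.94-fold in HCC44, and GINS1 and GINS2 rose 2.07-fold and 2.69-fold.

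CDC45 was the uncalled member with the highest value in H1975. It was at 43.7 and 35.8 CPM with DMSO and at 60.3 and 52.5 CPM with ACBI1, without overlap (log2 0.50 ± 0.24, adjusted p 0.153 by edgeR). DESeq2 called it (adjusted p 0.0388), as did the fits without a filter on low counts, with H1975 alone, with the replicate number as a block and without either HCC44 DMSO library.

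The polymerase and primase genes changed least in HCC44, with a median log2 fold change of 0.43, and 4 of 6 rose (17.5% of all genes). POLE2, an accessory subunit of polymerase epsilon, was at 8.71 and 8.57 CPM with DMSO and at 22.3 and 19.5 CPM with ACBI1 in HCC44, a 2.42-fold rise (log2 1.27 ± 0.14, adjusted p 6.63e-05 by edgeR). Its H1975 levels were 9.49 and 9.98 CPM with DMSO and 12.9 and 14.4 CPM with ACBI1, a 1.40-fold rise that lost its call without DMSO replicate 1 or ACBI1 replicate 2 (0.44 and 0.42). The catalytic subunits POLE, POLD1 and POLA1 rose 1.62-fold, 1.44-fold and 1.26-fold in HCC44 and were not called in H1975. The POLD1 call was lost without HCC44 DMSO replicate 1 or HCC44 ACBI1 replicate 2 (0.42 and 0.36), and the POLA1 call without either HCC44 DMSO library or ACBI1 replicate 1 (0.26 to 0.39).

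PRIM1, the catalytic primase subunit, was called in H1975 but not in HCC44. It was at 22.6 and 22.1 CPM with DMSO and 35.4 and 33.1 CPM with ACBI1 in H1975, a 1.53-fold rise (log2 0.61 ± 0.10, adjusted p 0.00134 by edgeR). In HCC44 it was at 30.4 and 32.4 CPM with DMSO and 34.9 and 35.7 CPM with ACBI1 (0.17 ± 0.10, adjusted p 0.225). POLA2, the other uncalled gene of the group, was at 4.13 to 6.11 CPM in all HCC44 libraries. PRIM1 and POLA2 share exon sequence with genes on the same strand over part of their length, so their counts are less certain.

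Of the 7 genes for the clamp, its loader, flap removal and single-strand binding, 6 rose in HCC44 and 2 in H1975. Over all genes 17.5% and 14.6% were called higher. LIG1, the ligase that seals Okazaki fragments, was at 14.6 and 17.9 CPM in HCC44 DMSO and at 38.4 and 58.2 CPM in HCC44 ACBI1, a 2.98-fold rise (log2 1.58 ± 0.20, adjusted p 0.000329 by edgeR). In H1975 it was at 28.6 and 22.5 CPM with DMSO and 37.0 and 33.2 CPM with ACBI1, apart but not called. PCNA, the sliding clamp, rose 1.46-fold in HCC44, from 111 ± 3.6 to 161 ± 6.5 CPM (n = 2). FEN1, which cuts the flaps of Okazaki fragments, rose 1.74-fold. The loader subunits RFC3 and RFC5 rose 1.72-fold and 1.79-fold. Its libraries spread widely, and the RFC3 log2 fold change of 0.78 was 0.46 without HCC44 DMSO replicate 1 and 1.19 without replicate 2, while without HCC44 ACBI1 replicate 1 it was 0.74 and not called.

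RFC4 and RPA2 rose in H1975. RFC4, also a loader subunit, was at 52.0 and 45.4 CPM with DMSO and 75.4 and 70.1 CPM with ACBI1 in H1975, and at 53.3 and 57.5 and at 86.5 and 74.9 CPM in HCC44. The rises were 1.49-fold and 1.46-fold (difference -0.04 ± 0.15, not called). RPA2, a subunit of the protein that coats single-stranded DNA, was at 38.5 and 44 CPM with DMSO and 51.4 and 53.3 CPM with ACBI1 in H1975 (log2 0.34 ± 0.10, adjusted p 0.0197 by edgeR). In HCC44 it was at 70.8 and 74.2 CPM and at 80.2 and 76.2 CPM, the smallest fold change of all 43. The H1975 call of RPA2 was lost without H1975 DMSO replicate 1 (0.24) or either H1975 ACBI1 library (0.34 to 0.40).

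Of the 5 nucleotide supply genes, 4 rose in HCC44 (17.5% of all genes) and 3 in H1975 (14.6% of all genes). TK1, which salvages thymidine, was at 7.92 and 16.5 CPM in HCC44 DMSO and at 41.9 and 60.5 CPM in HCC44 ACBI1, a 4.20-fold rise (log2 2.07 ± 0.35, adjusted p 0.00352 by edgeR). Its H1975 levels were 46.1 and 35.4 CPM with DMSO and 56.1 and 49.3 CPM with ACBI1. The groups were apart in both lines, yet only the HCC44 change was called. TYMS, thymidylate synthase, was at 49.1 and 73.3 CPM with DMSO and at 184 and 230 CPM with ACBI1 in HCC44. In H1975 it was at 42.1 and 39.1 CPM with DMSO and at 65.9 and 59.4 CPM with ACBI1. It rose 3.39-fold in HCC44 (log2 1.76 ± 0.18, adjusted p 0.000115) and 1.54-fold in H1975 (0.63 ± 0.18, adjusted p 0.0258). The H1975 call was lost without either DMSO library or ACBI1 replicate 1 (0.59 to 0.68), and 46.6% of TYMS exon length overlaps genes on the other strand, which unstranded counts could not separate.

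Of the 2 ribonucleotide reductase genes among the members, RRM2 was called in HCC44 and RRM1 in H1975. RRM2, the small subunit whose level follows S phase, rose 3.66-fold in HCC44, from 19.9 ± 8.8 to 72.9 ± 12 CPM (n = 2, log2 1.87 ± 0.32, adjusted p 0.00375 by edgeR). In H1975 it was at 134 ± 18 and 118 ± 30 CPM and was not called. Part of the RRM2 count is uncertain, since 20.2% of its exon length overlaps a gene on the same strand and 3 pseudogenes are named after it. RRM1, the large subunit, was at 125 and 136 CPM with DMSO and at 148 and 147 CPM with ACBI1 in HCC44, which was not called (0.18 ± 0.08, adjusted p 0.128). In H1975 RRM1 was at 89.9 and 96.4 CPM and at 121 and 123 CPM, a 1.31-fold rise (0.39 ± 0.08, adjusted p 0.0059) that lost its call without H1975 DMSO replicate 1 (0.33). DUT, which removes dUTP, rose 1.57-fold in HCC44 and 1.38-fold in H1975. Its log2 value in HCC44 was 0.55 and not called with DMSO replicate 1 left out, it was 0.40 when ACBI1 replicate 2 was, and the H1975 call was lost without either DMSO library or ACBI1 replicate 1 (0.43 to 0.49). DUT has 8 pseudogenes named after it, which could share its reads.

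**Figure D3:**
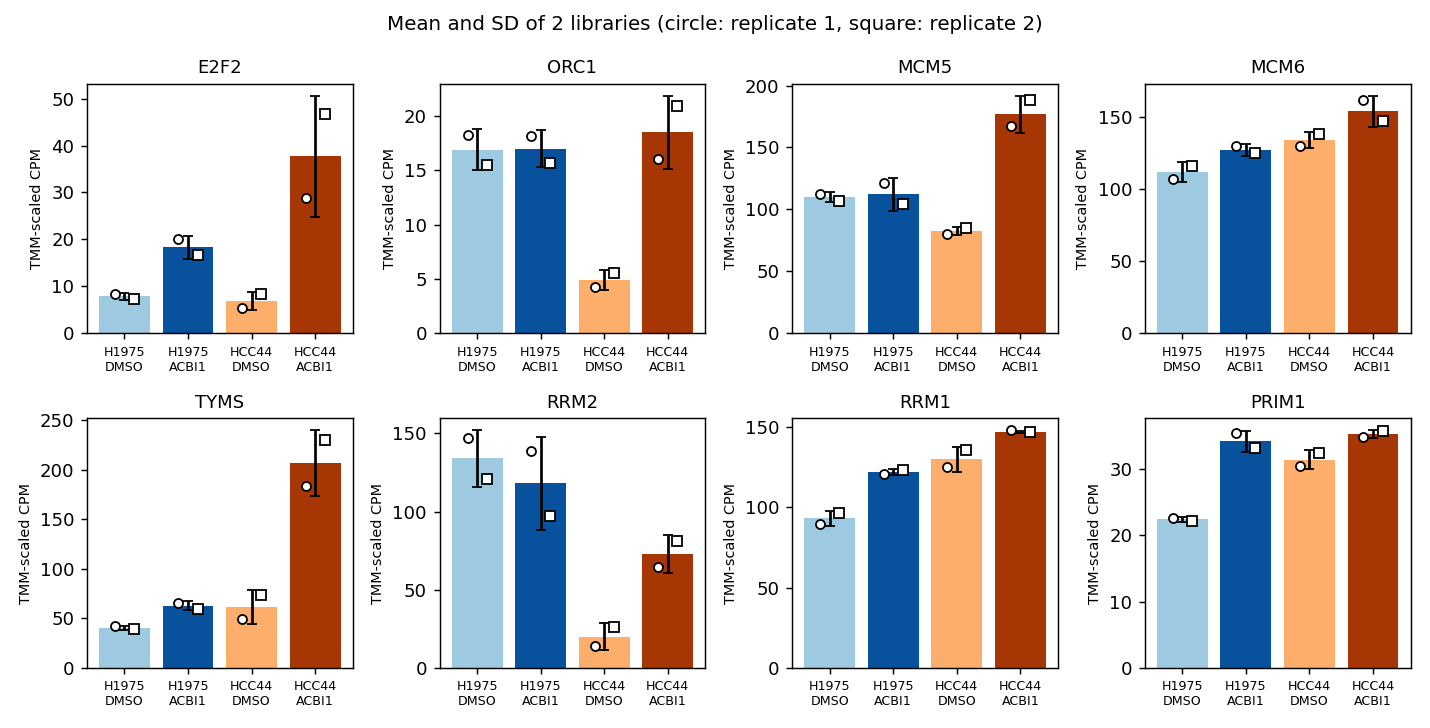
TMM-scaled CPM of 8 genes in the 4 groups, with bars for the mean, error bars for the SD of 2 libraries, circles for replicate 1 and squares for replicate 2. E2F2, ORC1, MCM5, TYMS and RRM2 are higher in HCC44 with ACBI1 than with DMSO, whereas MCM6, RRM1 and PRIM1 were not called in HCC44.

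The genes for chromatin copying and the replication checkpoint all rose in HCC44, beside 17.5% of all genes. CLSPN, the adaptor that activates the checkpoint kinase CHEK1, was at 17.0 and 20.8 CPM in HCC44 DMSO and at 67.1 and 60.4 CPM in HCC44 ACBI1, a 3.37-fold rise (log2 1.75 ± 0.14, adjusted p 1.09e-05 by edgeR). In H1975 it was at 32.1 and 26.6 CPM with DMSO and at 42.0 and 36.5 CPM with ACBI1 (0.42 ± 0.14, adjusted p 0.0375), a call lost when DMSO replicate 2 or ACBI1 replicate 1 was left out (0.34 and 0.35). UHRF1, which passes DNA methylation to the new strand, was at 48.6 and 56.5 CPM and at 79.4 and 106 CPM in HCC44, a 1.76-fold rise. H1975 held it at 185 to 214 CPM in all 4 libraries and was not called. CHAF1A and CHAF1B, subunits of the factor that places histones on new DNA, rose 2.35-fold and 2.11-fold in HCC44. CHAF1B also rose in H1975, from 20.4 and 20.1 to 31.3 and 30.0 CPM (0.60 ± 0.10, adjusted p 0.00176), while CHAF1A was not called there.

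Whether the lines responded differently was tested as the difference of their log2 fold changes, HCC44 minus H1975. It was called as positive for 29 members, beside 10.2% of all genes, and as negative for none, beside 8.4%. The members' median difference was 0.90, beside 0.036 over all genes. With library totals the share of positive differences among all calls was 40.5% in place of 54.9%, and the members' median was 0.78. The largest differences were those of RRM2 (2.06 ± 0.44), E2F8 (2.04 ± 0.32) and ORC1 (1.90 ± 0.26). E2F8, ORC1, CDC6, MCM3, MCM4, MCM5, MCM7, GINS1, GINS2, GINS3, GINS4, PCNA, CHAF1A and CLSPN were called under each of 16 alternatives, and the other 15 lost the call under at least 1. The RRM2 difference was among those lost, for example without H1975 DMSO replicate 1 (1.92). The count was 18 without H1975 DMSO replicate 1, 17 without H1975 ACBI1 replicate 2 and 18 without HCC44 DMSO replicate 1.

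By role, counts stand beside the 10.2% of all genes with a difference called as positive. The difference was called for 5 of 6 helicase activation genes and 8 of 10 licensing genes. It was also called for 4 of 4 chromatin and checkpoint genes and 4 of 5 E2F and cyclin E genes. It was called for 4 of 7 clamp and ligation genes, 3 of 5 nucleotide genes and 1 of 6 polymerase genes, that 1 being POLE2. Negative values were found for CCNE1, PRIM1, RFC4, RPA2 and RRM1. For PRIM1 the value was -0.44 ± 0.14 with an adjusted p of 0.0546 by edgeR, and 1 member was lower at an unadjusted p under 0.05. PRIM1 was called with DESeq2 (adjusted p 0.036), with 3 other scalings, with a filter of 1 CPM in 2 libraries and with the replicate block. CDC45 had a difference of 1.05 ± 0.34 that was not called (adjusted p 0.0689), though DESeq2 and 4 other settings called it, among them the fit without HCC44 DMSO replicate 2 (1.49).

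Levels were also compared between the lines. These comparisons use the same libraries as the responses and are not independent of them. With DMSO, 23 members were lower in HCC44 than in H1975, beside 36.4% of all genes, and 9 were higher, beside 31.6%. The members' median log2 difference was -0.37, beside -0.083 over all genes, which is -0.51 without HCC44 DMSO replicate 2, where 4 members were higher. The lowest were E2F8 (-3.90 ± 0.25), RRM2 (-2.75 ± 0.33), UHRF1 (-1.84 ± 0.13), ORC1 (-1.78 ± 0.19) and TK1 (-1.74 ± 0.34). The 9 that were higher in HCC44 were CCNE1, MCM6, POLA1, PRIM1, POLD1, RFC3, RPA2, RRM1 and TYMS.

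With ACBI1, 25 members were higher in HCC44, beside 31.9% of all genes, and E2F8 and UHRF1 were lower, beside 35.1%. The median log2 difference was 0.36, beside -0.036 over all genes. TYMS (1.73 ± 0.18), RFC3 (1.07 ± 0.19) and E2F2 (1.04 ± 0.25) had the highest values, of which that of E2F2 was 0.66 without HCC44 ACBI1 replicate 2. The count depended on the scaling and on 1 library, since with library totals 14 were higher and 6 lower, and without H1975 ACBI1 replicate 2 15 were higher.

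Per kilobase of all annotated exons, a rough scale for comparing genes, the members spanned a wide range. PCNA was the most abundant in each of the 4 groups at 75.2 to 110.0 CPM per kb and MCM7 followed at 49.7 to 96.5. At the other end POLA2 lay at 0.845 to 1.24 CPM per kb, and E2F8 was lowest of all in HCC44 DMSO at 0.265. A gene on the same strand overlaps 35.1% of POLA2 exon length and PCNA has 3 named pseudogenes, so both ranks are less certain. TYMS followed MCM7 in HCC44 ACBI1 at 83.9 CPM per kb. Levels of different genes were not tested against each other.

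The responses were compared between promoters with and without an E2F-type word, as a description. In HCC44 17 of the 19 genes with a word were called higher, with a median log2 fold change of 1.04 and a range of 0.20 to 2.47. Of the 18 genes without one, 15 were called higher, with a median of 0.90 and a range of 0.16 to 2.07. Over all genes 17.5% were called higher in HCC44. In H1975 7 of 19 and 4 of 18 were called higher, beside 14.6% of all genes, with medians of 0.33 and 0.19. The 4 of 18 lie near that share, and nothing is read from them. POLA2 and MCM6 were the genes with a word that were not called in HCC44, and the MCM6 window printed above holds 4 matches.

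**Figure D4:**
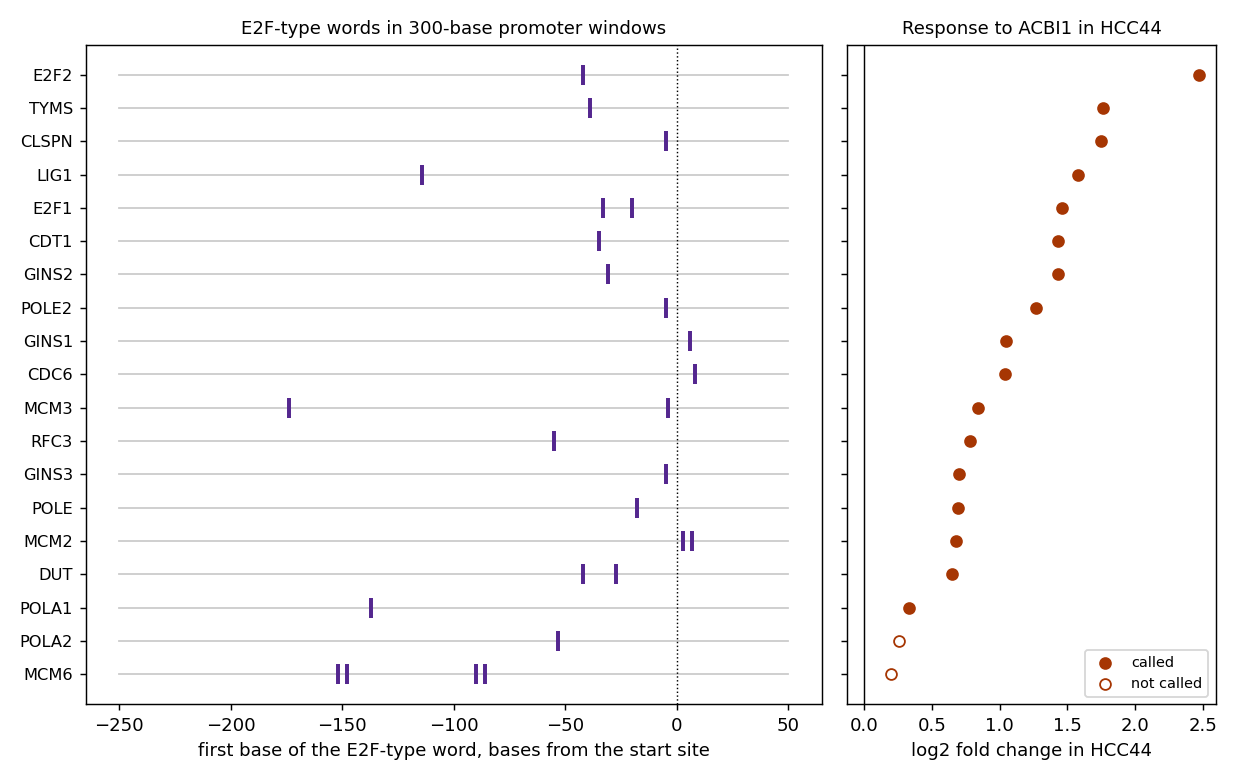
Left, first base of each E2F-type word (purple ticks, either strand) in the 19 promoter windows that hold one, in bases from the start site (dotted line). Right, log2 fold change of the same genes in HCC44, filled where called. In 16 genes a word begins between 60 bases before and 10 bases after the start, and MCM6 with 4 matches has the lowest fold change.

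Other genes of the same processes were taken from lists by function. Their counts stand beside shares over all genes of 17.5% higher and 17.4% lower in HCC44 and 14.6% higher and 16.7% lower in H1975. Of 37 further replication genes, 22 rose and 1 fell in HCC44 (median log2 0.37), and 11 rose and 3 fell in H1975 (0.10). DSCC1, which helps to load the clamp for sister chromatid cohesion, led in HCC44, from 3.42 and 4.76 CPM with DMSO to 13.5 and 15.1 CPM with ACBI1. RFC1, the large loader subunit, was the one that fell there (-0.34 ± 0.11, adjusted p 0.0298 by edgeR). CDC7, the kinase that fires origins, was the largest rise in H1975, from 13.6 and 13.1 to 30.9 and 33.0 CPM (1.26 ± 0.10, adjusted p 1.58e-05). In HCC44 it rose from 67.0 and 70.6 to 88.3 and 83.2 CPM (0.32 ± 0.09), so the difference ran against that of the members (-0.94 ± 0.13, adjusted p 0.00116). POLD4, a small subunit of polymerase delta, was the largest fall in H1975 (-0.58 ± 0.16).

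Of 12 further nucleotide supply genes, 6 rose and 1 fell in HCC44, and 3 rose and 2 fell in H1975. The share that fell in H1975 is at the background of 16.7% of all genes, and nothing about the list is read from it. SAMHD1, which breaks down deoxynucleotides, fell in both lines, by 0.76 in HCC44 and by 0.72 in H1975 on the log2 scale. SLC29A1, a nucleoside transporter, was the largest rise in H1975 (0.62 ± 0.10).

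Of 17 further chromatin and S-phase checkpoint genes, 13 rose and none fell in HCC44 (17.5% and 17.4% of all genes), and 6 rose and 1 fell in H1975 (14.6% and 16.7%). EXO1, a repair exonuclease, rose in HCC44 from 6.60 and 9.15 to 30.3 and 38.3 CPM. CHEK1 was the largest rise in H1975, from 35.6 and 35.5 to 55.6 and 56.2 CPM. NASP, a histone chaperone, was the one that fell in H1975 (-0.41 ± 0.10) and it rose in HCC44 (0.33 ± 0.10), with a called difference (0.75 ± 0.15, adjusted p 0.00612 by edgeR).

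Of 28 genes for RB proteins, E2Fs, cyclins and CDK inhibitors, 27 were tested, of which 10 rose and 5 fell in HCC44 and 2 rose and 5 fell in H1975. The falls lie near the background of 17.4% of all genes in HCC44 and 16.7% in H1975, and nothing about the list is read from them. CDKN1A, which encodes the CDK inhibitor p21, was at 145 and 109 CPM with DMSO and 72.5 and 60.2 CPM with ACBI1 in HCC44. Its H1975 levels were 164 and 148 CPM with DMSO and 69.1 and 49.7 CPM with ACBI1. It fell in both lines (-0.93 ± 0.18, adjusted p 0.00372, and -1.40 ± 0.18, adjusted p 0.000659, by edgeR). CDKN1B, encoding p27, fell by 0.41 and by 0.40 on the log2 scale in HCC44 and H1975, and CDKN1C and RB1 were called in neither. Other inhibitor genes rose in HCC44, among them CDKN2A (0.69 ± 0.12) and CDKN2C (1.42 ± 0.18), which were not called in H1975.

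CDKN2B, encoding the CDK4 and CDK6 inhibitor p15, went opposite ways. It rose in HCC44 from 60.5 and 72.8 to 209 and 304 CPM, while in H1975 it fell from 35.1 and 34.5 to 22.8 and 25.4 CPM (difference 2.47 ± 0.23, adjusted p 0.000219 by edgeR). E2F7, the partner of E2F8 in repression, fell in H1975 from 61.8 and 56.4 to 23.2 and 20 CPM and rose in HCC44 from 25.1 and 29.6 to 37.4 and 35.8 CPM (difference 1.87 ± 0.17, adjusted p 0.000119). CDKN2D was the largest rise of this list in H1975 at 0.49 ± 0.17, with an adjusted p of 0.0499. Among 20 mitosis genes 19 rose in HCC44, led by FOXM1 (2.34 ± 0.25), and none was called in H1975 in either direction. Their median log2 fold change was 1.7 in HCC44, above the 0.96 of the members, and 0.1 in H1975. The difference between the lines had a median of 1.72, beside 0.9 for the members. With DMSO 18 of the 20 were lower in HCC44 (median -1.94), beside 36.4% of all genes. The pattern is thus not particular to the replication genes.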

How the data were processed

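RNA was measured in 8 libraries, 2 for each line and treatment. The authors deposited raw counts of reads per gene name for each library, without normalization, and TopHat2 2.1.1, HTSeq 0.11.0 and hg38 are named in the submitters' processing notes. The strand setting and the annotation are not given in the sources used here. The 5 summary rows (14.3 to 15.8% of each table) entered neither library sizes nor tests.

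Genes were kept by filterByExpr, scaled with TMM factors and fitted with 1 mean per group over all 8 libraries in edgeR 4.0.16 (R 4.3.3), with the robust, two-sided quasi-likelihood F-test, 4 residual degrees of freedom and Benjamini-Hochberg adjustment. Standard errors were taken from the log2 fold change and F. The fit was checked on simulated counts, where the share of false calls was above the nominal level. Replicates differed by more than sampling noise (chi-square per degree of freedom 21.7 to 43.5). Exon lengths and overlaps came from GENCODE release 29. Exons of 21 members overlap another gene and 8 members have named pseudogenes.

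Alternatives were DESeq2 1.42.0, other scalings and filters, non-robust dispersion, each line alone, a replicate block and each library left out. Values in every library are given for the members with the largest and smallest change in HCC44 and the largest in H1975 of each role group. Single members are named with a test where called, and otherwise the one with the largest change, and E2F8, CDC6 and PRIM1 beside them. In the lists by function, the largest called rise and fall in each line at 5 CPM or more are named, with CDKN1A, CDKN1B, CDKN1C and RB1. CDKN2A and CDKN2C were added beside them after their values were seen. One gene that this rule would name is not reported here. Members and lists were chosen with earlier results of these data known.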

Additional observations from a re-analysis of the deposited data

Results flagged for a closer look

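A line-dependent response was called for 29 of the 43 members by a test of the difference itself (edgeR, adjusted p under 0.05). Over all genes 10.2% had a difference called as positive. The values below are log2 fold change in HCC44 minus that in H1975. Among the E2F and cyclin E genes the difference was 0.71 for E2F1, 1.24 for E2F2, 2.04 for E2F8 and 1.08 for CCNE2. Among the licensing genes the difference was 1.90 for ORC1, 1.21 for ORC6, 1.21 for CDC6, 1.02 for CDT1, 0.90 for MCM3, 0.92 for MCM4, 1.07 for MCM5 and 0.94 for MCM7. Among the helicase activation genes the difference was 1.23 for MCM10, 0.97 for GINS1, 1.38 for GINS2, 0.79 for GINS3 and 1.35 for GINS4. Among the polymerase genes the difference was 0.79 for POLE2. Among the clamp, loader and ligation genes the difference was 0.63 for PCNA, 0.65 for RFC5, 0.57 for FEN1 and 1.12 for LIG1. Among the nucleotide supply genes the difference was 2.06 for RRM2, 1.13 for TYMS and 1.70 for TK1. Among the chromatin and checkpoint genes the difference was 0.69 for UHRF1, 1.12 for CHAF1A, 0.48 for CHAF1B and 1.33 for CLSPN. All of them are positive, but the calls were not equally steady. The CHAF1B call was lost with RLE factors (0.44), upper-quartile factors (0.46), library totals (0.37) and DESeq2 (0.44). That of TK1 was lost with RLE factors (1.66), upper-quartile factors (1.68) and library totals (1.59). No group holds enough libraries to look for a single library that stands apart. What sets the lines apart was not tested.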

How the results depend on the processing

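The rise of the members in HCC44 was the steadiest result: 33 of 37 were called in each of 17 alternatives, and leaving out 1 library gave 34 to 37 calls and medians of 0.86 to 1.13. In H1975 the count of 12 became 23 with library totals and 19 with the replicate block, and 6 to 14 with 1 library left out, and its median was 0.40 with library totals, 0.27 with upper-quartile factors and 0.19 to 0.30 with 1 library left out. With the block 1 member was called lower there, MCM4 (-0.20). CDC6 in H1975 was -0.17 and 0.03 with library totals, called in neither. For the difference between the lines, 17 to 29 were called with 1 library left out, and the median was 0.78 with library totals and 0.80 to 0.94 with 1 library left out. There 1 member, PRIM1, was called lower with RLE factors, upper-quartile factors, library totals, 1 CPM in 2 libraries, DESeq2 and the replicate block. For the DMSO levels, leaving out 1 library gave 4 to 10 members higher in HCC44, 17 to 25 lower and medians of -0.51 to -0.25. For the ACBI1 levels, 14 were higher with library totals and 15 to 25 with 1 library left out, and 6 were lower with library totals, 4 with no filter, 5 with the replicate block and 2 to 3 with 1 library left out. The median there was 0.13 with library totals and 0.27 with upper-quartile factors (0.32 to 0.38 with 1 library left out), and MCM2 was at 0 with library totals. The cause of these shifts was not tested, but a fit without 1 library has fewer samples. Same-numbered libraries deviated together across genes (correlation 0.374 in H1975 and 0.109 in HCC44), and the labels name no shared batch. The POLA2 change in HCC44 (0.26) had a standard error of 0.24, so a change of that size in POLA2 was not detectable here.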
